A study of Mus musculus with 8 samples.

Results

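The genes described here are 197 mouse genes that were next to silent in embryos at the 1-cell stage and had reads at the 2-cell stage. They were chosen from the deposited read counts themselves. Reads were summed over the 4 libraries of each stage, genes with at most 4 summed 1-cell reads were kept, and the first 200 by summed 2-cell reads were taken. Of 21553 genes with a value, 4925 met the 1-cell limit, and 2384 of those had no read at the 2-cell stage either. Symbols beginning Zscan4, Tdpoz, Obox, Hist, Mrp, Eif, Nanog or Cdx2 and the genes Gm8300 and Zfp352 were then left out, which removed 3 of the 200. These were Tdpoz4 with 7876 summed 2-cell reads, Tdpoz3 with 2036 and Eif2s3y with 354. The rise between the stages is therefore how the genes were picked, and it is given below as a description without a test.

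Early mouse embryos begin on RNA and protein that the oocyte laid down. Transcription from the embryo's own genome starts weakly in the zygote and becomes strong during the 2-cell stage, a step called zygotic genome activation, while much of the maternal RNA is broken down. Transcripts of genes with no maternal RNA have to be made anew, so such genes show this step free of the maternal pool. Few reads in the zygote do not show that a gene has no maternal RNA, because polyadenylated RNA alone was read. Whether the genes described here lack maternal RNA was not tested.

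The study injected B6CBA F1 zygotes with mRNA for Snrpb, for Snrpd2, for both, or for mCherry, a red fluorescent protein that served as the control. Snrpb and Snrpd2 encode Sm proteins, subunits of the ring that assembles on spliceosomal small nuclear RNAs. Polyadenylated RNA was taken from whole 2-cell embryos at 24 h and from 1-cell embryos at 5 h past the injection, which gave 8 libraries, 1 for each of 4 injections at each of 2 stages. All embryos were injected, and each library pooled 40 embryos from 3 experiments, so no condition had a replicate and the spread between embryos is hidden. In such pools fewer cells that express a gene and less RNA per cell cannot be told apart.

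Libraries held between 39492734 and 44648717 reads at the 2-cell stage and between 49461122 and 59979046 at the 1-cell stage. Across 8 oocyte and zygote markers the summed level was 5263 to 6262 CPM (reads scaled to the library total) at the 2-cell stage, against 8024 to 9477 at the 1-cell stage, and the 4 of 8 listed 2-cell markers found in the tables summed to 117.8 to 130.8 CPM, against 4.654 to 6.045. All 12 cumulus and granulosa markers had reads at both stages, at 33.2 to 44.93 CPM in 2-cell and 50.7 to 100.7 CPM in 1-cell libraries. Single markers of this list differed. Cyp19a1 followed the sum, with 326 to 477 reads per 2-cell library against 2008 to 2469 per 1-cell library. Foxl2 went the other way, with 351 to 537 against 3 to 6. Cyp11a1 had 296 reads in the 2-cell Snrpd2 library, against 12 to 19 with the other injections at that stage. Fshr was lowest in the same library, with 1 read against 29 to 53. All 5 oviduct epithelium markers had 2-cell reads (55.53 to 71.47 CPM, against 8.606 to 29.26 at the 1-cell stage), as did 4 of 5 fibroblast markers (13.39 to 20.19 against 1.112 to 1.884 CPM) with Col3a1 at 0, and 5 of 6 sperm markers (1.924 to 3.225 against 2.034 to 2.833 CPM) with Tnp2 at 0. In reads per library, Epcam had 795 to 1091 at the 2-cell stage against 14 to 38 at the 1-cell stage. Krt8 had 1276 to 2084 against 400 to 1395, and Ovgp1 12 to 28 against 19 to 38. Pax8 had 16 to 27 against 0, and Foxj1 25 to 40 against 0 to 8. Of the fibroblast markers, Pdgfra had 508 to 815 against 18 to 48, Col1a1 9 to 38 against 0 to 13 and Dcn 5 to 19 against 24 to 53. The part of these cell types in the results was not tested.

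Together the members took 29843 reads in the 2-cell Snrpb library, 36402 in Snrpd2, 29753 in the combined injection and 27074 in mCherry, against 61, 135, 122 and 62 reads in the 1-cell libraries in the same order. In all they had 123072 reads at the 2-cell stage against 380 at the 1-cell stage. All 197 had at least 10 reads in each of the 3 Sm-injected 2-cell libraries, and 196 did in the mCherry library, the exception being Ccdc92b with 8. At the 1-cell stage 55 members had no read in any library, 29 had 1, 31 had 2, 39 had 3 and 43 had 4. The limit on 1-cell reads is a sharp line through a continuous range. Pramel7 (5630 summed 2-cell reads) and Tnfaip8l2 (3838) had 7 summed 1-cell reads and Gm4778 (3140) had 6, so these stayed outside. At the lower end the last genes inside were Hcrt and Gm13101 with 197 summed 2-cell reads each and Gm6880 with 194, and the first outside were Pcdhb2 with 192, C2cd4a with 191 and Rbm24 with 190.

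Levels of the members were low even at the 2-cell stage. Their mean level over the 4 2-cell libraries had a median of 1.41 cRPKM (deposited, scaled by library total and a length per gene). For the 17431 genes with at least 10 summed 2-cell reads the median was 2.98 cRPKM. The mean level was under 1 cRPKM for 76 members, between 1 and 10 for 106 and at least 10 for 15. The 3 members with the most reads, ENSMUSG00000074432, Tbx2 and Guca1a, held 12.5% of all member reads.

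**Figure D1:**
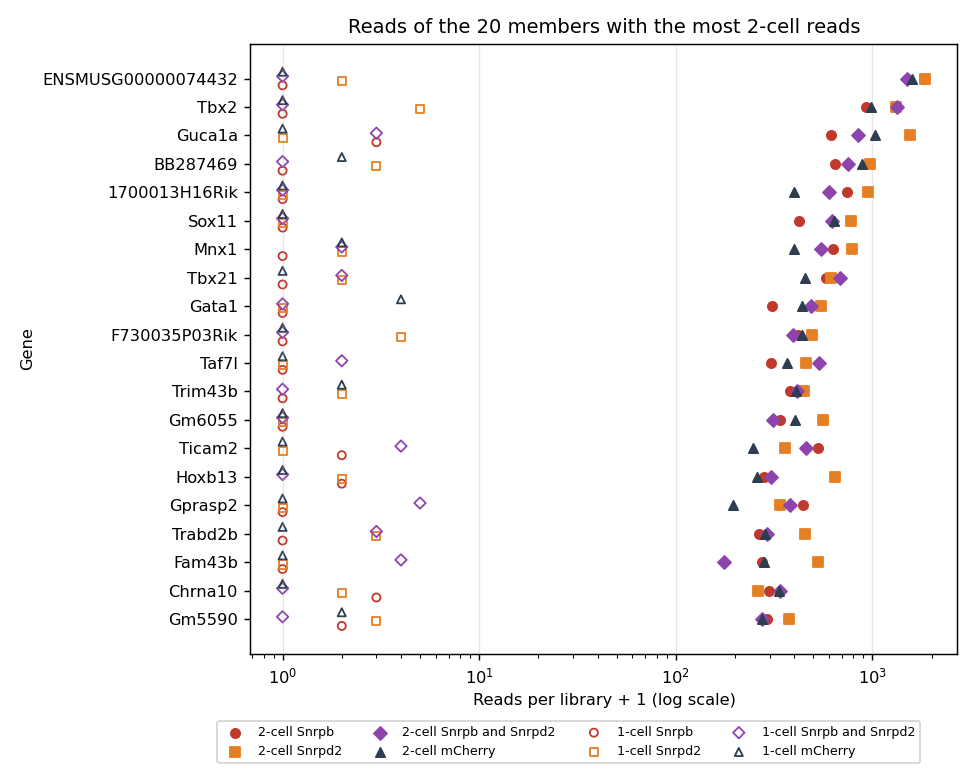
Reads per library plus 1, on a log axis, of the 20 members with the most summed 2-cell reads. Filled points are the 4 2-cell libraries and open points the 4 1-cell libraries, shifted vertically to be seen. The 1-cell points lie at 0 to 4 reads because the selection required it, and the 2-cell points lie between 175 reads (Fam43b, combined injection) and 1857 reads (ENSMUSG00000074432, Snrpd2).

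Among the members with no 1-cell read, 1700013H16Rik, an X-linked gene model, had the most 2-cell reads. It had 743 reads with Snrpb, 948 with Snrpd2, 600 with both and 400 with mCherry at the 2-cell stage, and 0 in every 1-cell library. Taking a floor of 3 reads over the 1-cell stage, it was at least 944-fold higher at the 2-cell stage. Sox11, an HMG-box transcription factor of neural and other progenitors, had 422, 774, 620 and 633 reads in the same order and 0 at the 1-cell stage, which was at least 859-fold. Gabra4, a subunit of the GABA-A receptor, had 289, 319, 336 and 244 reads against 0 (at least 417-fold). That every 2-cell library of these genes was above every 1-cell library follows from how they were picked.

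The upstream sequence of the 5 members with the most 2-cell reads among those that had no 1-cell read and an entry in the RefSeq promoter table is shown here, because reads of these genes were seen in the 2-cell libraries alone. Each line gives the 250 bases before the annotated start (RefSeq, GRCm38.p6), 5' to 3' on the gene's strand. Capitals mark matches on either strand to 4 motifs. TATAAA is the TATA box core. The letters GGGCGG form the core of the GC box. A match to CCAAT marks a CCAAT box core, and CACCC is a short form of sites known for KLF factors. Matches next to each other run together.
1700013H16Rik (chrX:53757832-53758081, - strand): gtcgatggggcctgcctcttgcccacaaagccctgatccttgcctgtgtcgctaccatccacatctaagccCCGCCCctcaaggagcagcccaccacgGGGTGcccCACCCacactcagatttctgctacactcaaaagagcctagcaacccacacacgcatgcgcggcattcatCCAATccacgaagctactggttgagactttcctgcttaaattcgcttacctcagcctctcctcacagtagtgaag
Sox11 (chr12:27342719-27342968, - strand): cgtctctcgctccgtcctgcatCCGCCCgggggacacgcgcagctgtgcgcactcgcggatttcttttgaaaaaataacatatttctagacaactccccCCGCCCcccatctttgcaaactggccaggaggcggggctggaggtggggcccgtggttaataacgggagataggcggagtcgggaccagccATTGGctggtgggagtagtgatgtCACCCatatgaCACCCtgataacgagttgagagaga
Gabra4 (chr5:71658309-71658558, - strand): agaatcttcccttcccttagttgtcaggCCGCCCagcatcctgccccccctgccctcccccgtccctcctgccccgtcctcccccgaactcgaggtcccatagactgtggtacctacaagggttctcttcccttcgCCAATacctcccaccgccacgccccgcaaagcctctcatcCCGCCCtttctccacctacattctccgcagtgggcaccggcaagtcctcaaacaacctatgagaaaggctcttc
Foxf2 (chr13:31625566-31625815, + strand): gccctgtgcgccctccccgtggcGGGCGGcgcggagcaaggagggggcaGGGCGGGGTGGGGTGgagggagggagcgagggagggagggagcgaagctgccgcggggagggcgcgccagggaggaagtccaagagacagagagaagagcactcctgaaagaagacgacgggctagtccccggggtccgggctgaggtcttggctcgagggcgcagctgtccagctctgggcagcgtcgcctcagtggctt
Ggt6 (chr11:72435276-72435525, + strand): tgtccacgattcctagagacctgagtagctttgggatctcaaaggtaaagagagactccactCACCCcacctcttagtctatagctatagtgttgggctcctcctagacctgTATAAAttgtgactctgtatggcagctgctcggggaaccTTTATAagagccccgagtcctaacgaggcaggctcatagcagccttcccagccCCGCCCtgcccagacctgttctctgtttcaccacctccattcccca

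All but Ggt6, a gamma-glutamyltransferase family gene, lacked TATAAA in this window, and all 5 held GGGCGG or its reverse complement. Ggt6 had TATAAA 138 bases before the start on the sense strand and again 99 bases before it on the other strand. Sox11, Gabra4 and Foxf2 each had GGGCGG at 2 places.

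Over the 133 members found in the table by symbol, the window from 250 bases before to 50 bases after the start had a median GC content of 56%, against 57.7% for the 15517 promoters of genes in the files. The median number of CpG dinucleotides per promoter was 9 in members against 15. Transcription factor members (27 promoters) had a median of 14 and the other 106 members 8, against 16 for 856 other transcription factor genes. GGGCGG was found in 43.6% of member promoters against 50.2% of those in the files (35.9% of all 27025 in the table). CCAAT stood at 42.9% against 38.6% (37.9%), CACCC at 66.9% against 60.2% (56.7%), CACGTG at 7.52% against 8.42% (7.24%) and TATAAA at 12% against 11.9% (14.2%). Letters bound by factors studied at this stage were rare in members and in the other promoter sets. GGATTA, an OTX and OBOX type core, was in 4 member promoters (3.01% against 6.23% in the files and 7.16% in the table). TCAAGGTCA, an NR5A2-type site, was in 1 (0.752% against 0.296% and 0.407%). Each motif was searched on both strands. CACCC and GGGCGG can adjoin each other, and a match to such short letters is not a binding site.

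By gene symbol, 36 of the 197 members (18.3%) were transcription factor genes, against 1144 of all 21553 genes with a value (5.31%). Among the 1074 other genes under the same 1-cell limit that had at least 10 summed 2-cell reads the share was 5.49%, with 59 genes. Homeobox genes were 14 members (7.11% against 1.02% of all genes), bHLH genes 6 (3.05% against 0.385%), FOX genes 4 (2.03% against 0.2%) and SOX genes 2 (1.02% against 0.0974%), whereas zinc finger genes were 3 (1.52% against 2.57%). The classes were set by symbol prefix and some prefixes were corrected with the members in view, so the shares are a description.

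**Figure D2:**
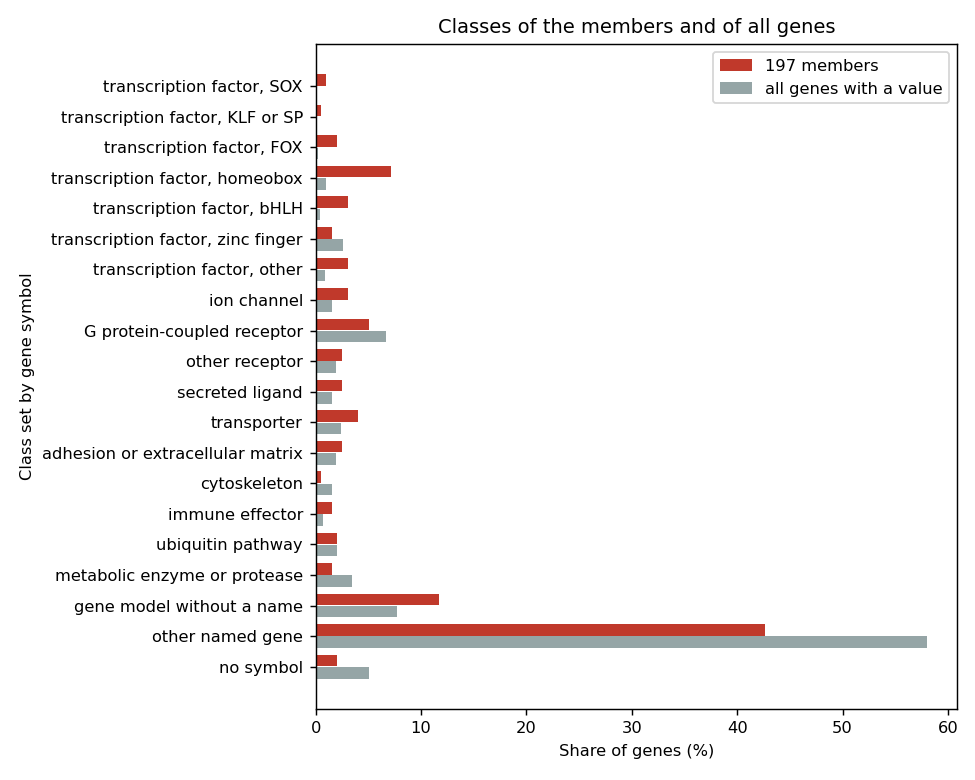
Share of the 197 members and of all 21553 genes with a value that falls in each class set by gene symbol, in percent. Homeobox genes make up 7.11% of members against 1.02% of all genes, and G protein-coupled receptor genes 5.08% against 6.7%.

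Many of the transcription factor members are known from organ and lineage formation after implantation. Tbx2, a T-box repressor of heart and limb development, had 932 reads with Snrpb, 1313 with Snrpd2, 1339 with both and 977 with mCherry, against 4 reads in the 1-cell Snrpd2 library and 0 in the other 1-cell libraries. Its level was 7.64 ± 1.49 cRPKM (SD over the 4 2-cell libraries). Tbx21, the T-bet factor of T helper cells, had 581, 614, 682 and 452 reads in the same order (5.74 ± 1.11 cRPKM). Gata1, the X-linked factor of red cells and megakaryocytes, had 309, 545, 486 and 439 reads (5.73 ± 1.19 cRPKM), against 3 reads in the 1-cell mCherry library.

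Homeobox members were led by Mnx1, a motor neuron and pancreas factor, with 631, 788, 544 and 400 reads with Snrpb, Snrpd2, both and mCherry (10.02 ± 2.49 cRPKM). Hoxb13, the most posterior gene of the Hoxb cluster, had 281, 646, 303 and 257 reads, so that the Snrpd2 library stood alone above the others. Nkx2-3, Nkx2-4 and Nkx2-5, of the NK2 group, had means of 2.06, 2.37 and 1.68 cRPKM. Cdx4, a caudal-type gene on the X, had 88, 109, 109 and 105 reads. Hmx2 and Hmx3, a pair of ear and hypothalamus genes, are next to each other on chromosome 7, and both are members (1.37 and 0.968 cRPKM). The bHLH members were the neural genes Atoh1 (3.47 ± 0.604 cRPKM), Neurog1, Olig3 and Bhlhe22, the pancreas gene Ptf1a and the germ cell gene Sohlh1 (1.96 ± 0.5 cRPKM). FOX members included Foxf2 (2.08 ± 0.205), Foxa2 (0.907 ± 0.595) and Foxb2 (1.09 ± 0.205 cRPKM). Foxa2 had 156 reads with Snrpb against 51 to 59 in the other 2-cell libraries, so 1 library set its mean.

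Channel members numbered 6. Chrna10, a nicotinic acetylcholine receptor subunit, had 297, 262, 337 and 332 reads with Snrpb, Snrpd2, both and mCherry. Gabra4 and the potassium channel genes Kcnk6, Kcna6, Kcna7 and Kcnj2 completed the class, at 0.335 (Kcnj2) to 1.84 cRPKM (Kcnk6). G protein-coupled receptors numbered 10, led by Tbxa2r, the thromboxane receptor (3.23 ± 0.824 cRPKM), and Adrb1, the beta-1 adrenergic receptor (2.19 ± 0.482 cRPKM). Other receptors were Cd14, Ret, Insrr, Cd300ld and Mst1r. Secreted ligands included Nodal, the TGF-beta family signal that later patterns the epiblast, and Bdnf, a neurotrophin. Nodal had 90 reads with Snrpb, 33 with Snrpd2, 115 with both and 52 with mCherry, and 0 at the 1-cell stage. The Snrpb and combined libraries were high for Nodal and the Snrpd2 library low, a 4.07-fold range.

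Slc32a1, the vesicular GABA transporter, was among the 8 transporter members, with 87, 57 and 35 reads with Snrpb, Snrpd2 and both, against 27 with mCherry. Small neuroendocrine genes were present too. Vgf, a neurosecretory protein gene, had 135, 339, 142 and 251 reads with Snrpb, Snrpd2, both and mCherry, and Hcrt, the orexin precursor of the hypothalamus, had 68, 40, 44 and 45. Genes known from the testis and germ line formed another visible group, picked out after the values were seen. Taf7l, a TFIID subunit of germ cells, had 305, 457, 535 and 367 reads (5.32 ± 1.4 cRPKM), and Tsga8, a spermatid gene, had 177, 206, 206 and 202. Tex101, a surface protein gene of germ cells, had 114, 211, 81 and 106 reads, so its Snrpd2 library was high. The cancer-testis genes Ctag2 and Mageb3 had means of 2.3 ± 0.365 and 2.05 ± 0.624 cRPKM. The 6 sperm markers summed to a similar level at both stages, as given above. Prm2, the most abundant, had 46 to 90 reads in 2-cell libraries against at least 101 in 1-cell libraries, Odf1 11 to 38 against 17 to 24, Akap4 0 to 8 against 4 to 16 and Tnp1 8 to 14 against 0. Prm1 had at most 3 reads in any library, and Tnp2 had 0 in every 2-cell library. Their part in these levels was not tested.

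Ciita, the master coactivator of MHC class II genes, and H2-Ab1, a class II beta chain it acts on in immune cells, were both members. Ciita had 192, 212, 201 and 153 reads with Snrpb, Snrpd2, both and mCherry and 0 at the 1-cell stage. H2-Ab1 had 44, 111, 37 and 63 reads, against 3 reads in the 1-cell Snrpd2 and 1 in the 1-cell mCherry library. Lyz2, the lysozyme of myeloid cells, likewise had 326 reads with Snrpd2 against 76, 140 and 102 with Snrpb, both and mCherry. The 5 blood markers found, Lyz2 included, summed to 10.57 CPM in that library, against 4.192 to 5.52 CPM in the other 2-cell libraries and 2.241 to 4.585 CPM at the 1-cell stage. Without Lyz2 the other 4 summed to 3.27 CPM there, against 1.98 to 2.32 CPM in the other 2-cell libraries and 2.2 to 4.58 CPM in the 1-cell libraries. Among these, Ptprc, the leukocyte antigen CD45, had 15 reads in the 2-cell Snrpd2 library and 0 in the other 2-cell libraries, while Hba-a1 and Alas2 had 0 there. Their part in the levels of H2-Ab1 and Lyz2 was not tested.

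Several of the members with the highest cRPKM had a very short implied length. The length implied by reads and cRPKM was 3 bases for Gm6055 and 5 bases for Gm5662, against a median of 1998 bases over all members. Gm6055 thus reached a mean of 3185 cRPKM from 337, 561, 310 and 404 reads, and Gm5662 734 cRPKM from 108, 181, 151 and 176. Trim43b, a 2-cell gene of the tripartite motif family (132 bases, 74.7 cRPKM), Gm5590 (162 bases, 44.6), ENSMUSG00000078660 (39 bases, 41.0), Pramel4 (90 bases, 24.3) and Gm4799 (169 bases, 16.6) were likewise above 10 cRPKM on a short implied length. Levels per length of the 11 members under 200 bases are not comparable with those of other genes. BB287469 (52.5 ± 6.92 cRPKM), ENSMUSG00000074432 (31.4 ± 2.82) and Guca1a (28.9 ± 9.83), a guanylate cyclase activator of photoreceptors, led the rest. Genes with near-identical copies, such as the Gm models, Trim43b, Pramel4 and Fthl17f, are uncertain because the handling of reads that match several places is not given in the sources used here. Rps27a, a ribosomal fusion gene, had 37, 82, 47 and 46 reads on an implied 154 bases, and its reads cannot be told from those of copies.

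Chromosome and exon number were not used in the selection. Of 193 members in the GENCODE annotation, 24 (12.4%) were X-linked, against 3.87% of all annotated genes and 5.71% of the other genes under the 1-cell limit with at least 10 summed 2-cell reads. They included 1700013H16Rik, Gata1, Taf7l, Gprasp2 and Rhox9. The median number of exons was 4 in members, against 7 in all genes and 5 in those other silent genes. It was 3 over all 4925 genes under the 1-cell limit. A single exon was annotated for 30 members (15.5%), against 5.73% of all genes and 12.4% of those other silent genes. Over all 4925 genes under the limit the single-exon share was 15.9%, near that of the members. Sox11 and Jrkl were such single-exon members. Besides Hmx3 with Hmx2, the neighbouring protein-coding pairs were Gm10645 with Tbc1d9 on chromosome 8 and 1700013H16Rik with Zfp36l3 on the X.

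Relatives of the members were followed between the stages in 9 family lists (edgeR, Benjamini-Hochberg adjusted p under 0.05, 2-cell over 1-cell, 4 injections as the spread). The lists held 269 other genes with a fitted value, of which 177 rose and 33 fell, against 38.1% and 32.0% of all 16264 genes tested. That count is not free of the choice made by the filter, since 99 of the 269 had under 40 summed 1-cell reads and entered the fit through their 2-cell reads. Of these, 25 had at most 4 summed 1-cell reads, as the members did, and Tdpoz4 and Tdpoz3 met the selection itself. Counts are therefore given for the 170 relatives with at least 40 summed 1-cell reads, a limit set after the values were seen. Of these 88 rose and 33 fell, with a median log2 change of 0.63. Of all 13740 genes above the same limit 30.3% rose and 37.8% fell, with a median of −0.13. The lists were drawn up around the members and with results of these data known.

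Among relatives above that limit, SOX genes rose in 8 of 12 and fell in 2, and KLF and SP genes rose in 16 of 20 and fell in 4. FOX genes rose in 13 of 23 and fell in 2, and homeobox genes rose in 18 of 31 and fell in 2. Klf5, which acts in the early blastocyst, reached 57.0 ± 12.1 cRPKM at the 2-cell stage against 0.555 ± 0.168 at the 1-cell stage (SD over 4 libraries each, log2 6.43, SE 0.20, edgeR adjusted p = 1.48e-08). Sp9, a zinc finger factor of the SP group, reached 6.27 ± 1.49 against 0.0775 ± 0.0435 cRPKM (log2 6.09, SE 0.30, edgeR adjusted p = 7.16e-08). Sox17, the endoderm factor, was at 6.57 ± 3.1 against 0.143 ± 0.064 cRPKM (log2 5.23, SE 0.20, edgeR adjusted p = 2.32e-08). Among those that fell were Klf17, at 471 ± 32.5 against 932 ± 36.8 cRPKM (log2 −1.25), and Foxo1, at 63.9 ± 3.26 against 134 ± 9.27 cRPKM (log2 −1.33). Below the limit, Sp6, a zinc finger factor of epithelia, stood at 26.3 ± 2.82 against 0.025 ± 0.0265 cRPKM, and Foxi3, an ectodermal forkhead factor, at 17.7 ± 3.9 against 0.0375 ± 0.0222. These are given as values alone, because their 2-cell reads brought them into the fit.

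GABA-A receptor subunits above the limit rose in 2 of 9 and fell in 0. Gabra3 was at 15.3 ± 1.29 cRPKM at the 2-cell stage and already at 7.2 ± 1.5 at the 1-cell stage. Potassium channel genes rose in 7 of 30 and fell in 12. Among those that fell was Kcnk13, at 9.45 ± 0.988 cRPKM at the 2-cell stage against 25.6 ± 1.77 at the 1-cell stage. The class II transactivation list held regulators such as RFX and NFY genes beside class II genes, and its genes rose in 5 of 12. The 3 that fell were the regulators Rfx5, Nfya and Nfyc. Those that rose were the regulators Rfxap (log2 0.75) and Nfyb (log2 0.49) beside H2-Eb1, Ctss and H2-DMa. Rfxank, Creb1, H2-Aa and H2-Oa were not called. H2-DMa, which helps load peptides on class II molecules, was at 4.39 ± 0.808 against 0.335 ± 0.0794 cRPKM (log2 3.45, SE 0.31, edgeR adjusted p = 3.9e-06). Nfya, a general CCAAT-binding subunit, fell to 13.7 ± 0.648 cRPKM at the 2-cell stage, against 29.7 ± 1.05 at the 1-cell stage. Genes listed as DUX targets of the 2-cell stage rose in 17 of 29 and fell in 7. Pramel and Pramef genes rose in 2 of 5 and fell in 2, Pramef12 being at 42.6 ± 4.42 cRPKM at the 2-cell stage against 248 ± 5.23 at the 1-cell stage. Differences between the families were not tested.

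**Figure D3:**
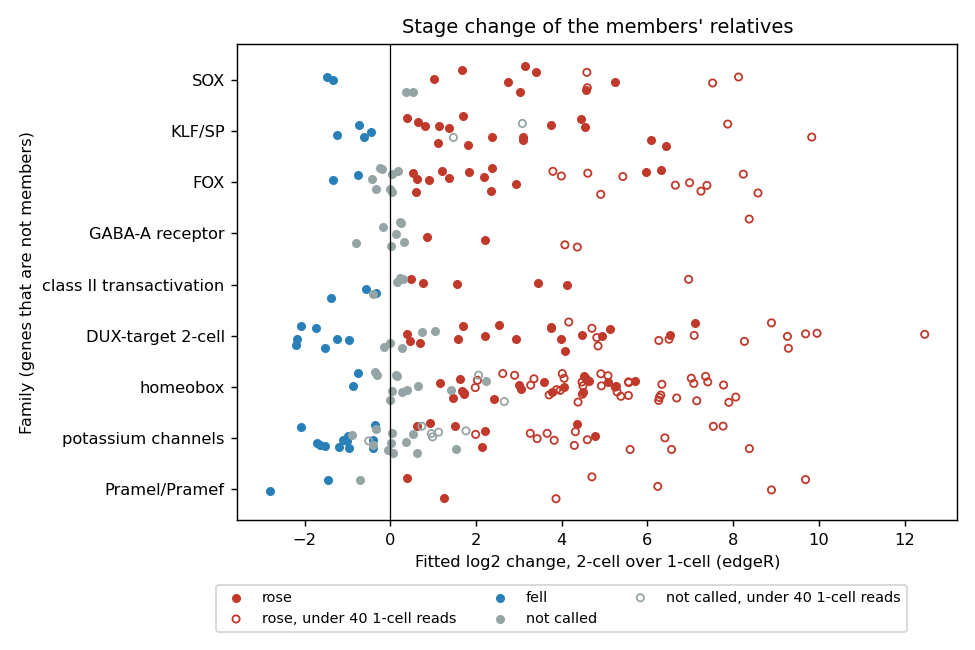
Fitted log2 change (2-cell over 1-cell, edgeR) of genes in the 9 family lists that are not members, 1 point per gene and family, shifted vertically to be seen. Red genes rose and blue genes fell at an adjusted p under 0.05, grey genes did not pass, and open points had under 40 summed 1-cell reads. Of the filled points, homeobox genes rose in 18 of 31 and potassium channel genes in 7 of 30.

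The Sm mRNAs were the study's treatment, and the next comparison asked whether the members' 2-cell levels differed with them. No gene was called in either direction at the 2-cell stage (edgeR, adjusted p under 0.05, 3 Sm-injected libraries over 1 mCherry library, the spread taken from the Sm-injected libraries of each stage). Of 16867 genes 0.0% were called higher and 0.0% lower, and likewise 0 members. With DESeq2 the counts were also 0. At an unadjusted edgeR p under 0.05, 8 members were higher (4.06%, against 2.29% of all genes) and 1 was lower (0.508%, against 1.48%). With DESeq2 11 and 0 members passed that level. The higher count was 16 with the 2-cell libraries fitted alone and 5 without the library of the combined injection. The 8 were Ccdc92b, Tlx2, 2210407C18Rik, 1700013H16Rik, Mnx1, Irs3, Kcna6 and Jrkl, and the lower 1 was Zfp300. The sum of 2-cell reads that ranked the members holds 3 Sm-injected libraries and 1 mCherry library, so this comparison is not free of the selection.

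The fitted log2 change with Sm mRNA was positive for 143 of 197 members (72.6%), with a median of 0.23 and quartiles of −0.03 and 0.63. Over all genes 52.4% were positive with a median of 0.02, and over 8893 other genes in the members' range of 2-cell reads 54.4% with 0.03. The 2254 other genes with an at least 8-fold rise between the stages came close to the members, with 66.7% positive and a median of 0.17. Summed over members, the level was 736 CPM with Snrpb, 815 with Snrpd2 and 753 with both, against 636 with mCherry. All 3 Sm-injected libraries lay above mCherry for 73 members (37.1%, against 23.6% of all genes) and all 3 below it for 26 (13.2%, against 22.9%). Without the 2-cell Snrpd2 library 131 members were positive and the median was 0.22. These shares rest on 1 mCherry library, and whether they belong to the injection or to that library cannot be told apart.

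**Figure D4:**
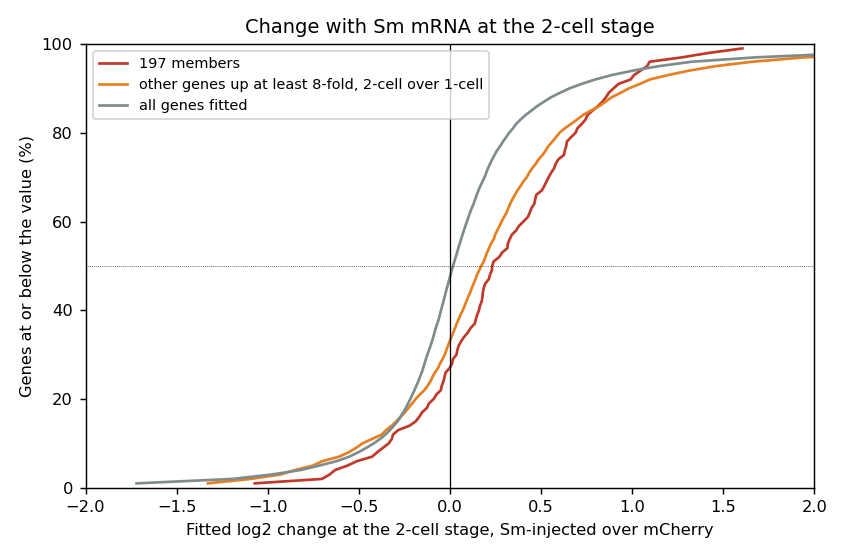
Share of genes, in percent, at or below each fitted log2 change at the 2-cell stage, Sm-injected over mCherry, for the 197 members, for 2254 other genes at least 8-fold higher at the 2-cell stage and for all 16867 genes fitted. The members' curve crosses 50% at 0.23, that of the other rising genes at 0.17 and that of all genes at 0.02; no gene passed the test.

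Transcription factor members were positive in 31 of 36 (median 0.27) and the other members in 112 of 161 (median 0.23). By exon number, the 163 members with several exons had a median of 0.32 with 122 positive, and the 30 with a single exon 0.11 with 19 positive. Over all genes both kinds had a median of 0.02. The difference between the groups was not tested, and gene totals do not show splicing.

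Ccdc92b, a coiled-coil domain gene, had the highest change. It had 147 reads with Snrpb, 76 with Snrpd2 and 79 with both, against 8 with mCherry, and 0 at the 1-cell stage. The log2 change was 3.64 (SE 0.84, edgeR adjusted p = 1.0, unadjusted p = 0.00181). Tlx2, a homeobox gene of enteric neurons, had 175, 224 and 154 reads against 60 with mCherry (log2 1.60, SE 0.49, edgeR adjusted p = 1.0). 2210407C18Rik had 104, 98 and 121 reads against 32 (log2 1.75, SE 0.55, edgeR adjusted p = 1.0). In these genes every Sm-injected library was above the mCherry library. Chrdl2, a secreted BMP antagonist, had 61, 172 and 120 reads against 40 (log2 1.52), and Ltk, a receptor tyrosine kinase, 89, 65 and 47 against 25 (log2 1.41).

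At the other end, Unc45b, a myosin chaperone of muscle, had 62, 35 and 32 reads with Snrpb, Snrpd2 and both, against 95 with mCherry (log2 −1.14, SE 0.64). Tmed11, of the p24 family of secretory cargo receptors, had 12, 92 and 26 reads against 89 (log2 −1.11, SE 0.85), so the Snrpd2 library matched the mCherry library and the other Sm-injected libraries were low. Zfp300, an X-linked zinc finger gene, had 59, 63 and 52 reads against 121 (log2 −1.07, SE 0.47, edgeR adjusted p = 1.0). Gm595 (log2 −0.83) and Cd300ld (log2 −0.69) followed.

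**Figure D5:**
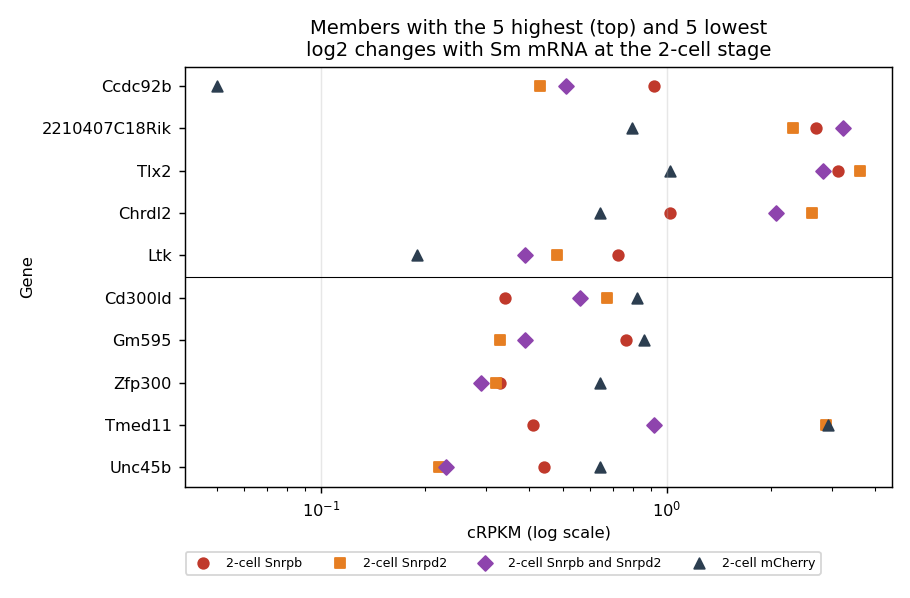
Level in cRPKM, on a log axis, in each 2-cell library of the members with the 5 highest (top) and 5 lowest fitted log2 changes with Sm mRNA. Ccdc92b was at 0.92, 0.43 and 0.51 cRPKM with Snrpb, Snrpd2 and both, against 0.05 with mCherry, and no gene shown passed the test.

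Taken library by library against mCherry, members with at least 50 reads in either library were counted where the ratio was at least 2-fold and its 95% interval, which covers counting error only, lay beyond 1. With Snrpb 26 of 191 were higher and 5 lower, against 2.65% and 1.71% of all genes. With Snrpd2 19 of 189 were higher and 7 lower, against 2.83% and 1.51%. With both 23 of 181 were higher and 4 lower, against 2.18% and 1.34%. These shares of all genes were not matched to the members in reads or in rise between the stages. Other genes matched in reads ranged more widely between the 2-cell libraries (median 1.68-fold) than those over the members' whole range of reads (1.44-fold). How far the members differ from matched genes in these counts was not tested. Ccdc92b, Tlx2 and 2210407C18Rik were higher in each of the 3 ratios, which share the mCherry library. For Ccdc92b the ratios were 19.1 (9.46 to 45.1) with Snrpb, 8.59 (4.15 to 20.6) with Snrpd2 and 10.4 (5.04 to 25) with both. Such ratios describe single pools.

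The range between the highest and the lowest 2-cell library, scaled for depth, had a median of 1.89-fold over the members, against 1.44-fold over the 8893 other genes in their range of reads. Within the middle quartiles of the members' reads it was 1.89-fold for 99 members, 1.68-fold for 1739 other genes and 1.80-fold for 333 other genes at least 8-fold higher at the 2-cell stage. Besides Ccdc92b (19.1-fold) the widest were Tmed11 (7.12-fold), Ccdc169 (4.22-fold, 110, 30 and 63 reads with Snrpb, Snrpd2 and both against 75 with mCherry), Nodal (4.07-fold) and 2210407C18Rik (3.99-fold). The lowest library was mCherry for 73 members (37.1%, against 26.3% of the other genes in range) and the highest was mCherry for 26 (13.2%, against 20.7%). Snrpd2 was the highest for 64 members, a share of 32.5% that is near the 32.4% of the other genes.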

How the data were processed

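Each of the 8 libraries came as a deposited table with 2 values per Ensembl gene. The authors' counts were whole numbers of reads, and the deposited cRPKM was an RPKM-type value scaled by library total and a length per gene. That length need not be the full gene length, since the implied length was 3 bases for Gm6055. Per the submitters' processing notes, the authors used mm9. Per the labels' protocols, RNA from the RNeasy Micro kit went into SMARTer Stranded RNA-Seq libraries, read on a HiSeq2500. Not given in the sources used here are the aligner, the annotation, the use of strand and the handling of reads that match several places. Of 22667 genes listed, 1114 had no value and 21553 were used. Symbols, chromosomes and exon numbers came from GENCODE vM21 (GRCm38) by identifier, and promoters from RefSeq (GRCm38.p6).

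The members, families, classes and motifs were chosen with earlier results of these data known. Counts were tested with edgeR 4.0.16 under R 4.3.3 (quasi-likelihood, filterByExpr, TMM scaling, adjustment by Benjamini and Hochberg), with DESeq2 1.42.0 as an alternative, after a check on simulated counts. The stage effect was fitted to all 8 libraries with terms for injection and stage (16264 genes, 3 residual degrees of freedom). The Sm effect was fitted with 4 groups, stage by Sm or mCherry (16867 genes, 4 residual degrees of freedom), so a lone mCherry library was assumed to vary like the Sm-injected ones, and p-values measure the spread between differently injected pools. Calls used an adjusted p of 0.05. Folds against 0 reads used a floor of 3 reads over the stage, and intervals were exact conditional binomial intervals at 95%. Floors and intervals cover counting error only. Depth ran from 39492734 to 59979046 reads. The implied length of a gene is its reads divided by cRPKM and by library total.

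Genes named in the text are the 20 members with the most reads, the 10 with the highest cRPKM, the 5 at each end of the Sm change, the 5 with the widest range, those at either side of the limits and the leading members of each class. Others, the relatives in the families included, were chosen after their values were seen. Alternatives were RLE size factors, library totals, no filter, DESeq2, 2-cell libraries alone, a minimum of 20 reads, other limits for the members, a minimum of 40 summed 1-cell reads for the relatives (added after the data were seen) and leaving out each library.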

Additional observations from a re-analysis of the deposited data

How the results depend on the processing

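No gene, and so no member, was called for the Sm effect at the 2-cell stage with RLE size factors, library totals, no filter, DESeq2, 2-cell libraries alone or without any Sm-injected library. The number of members at an unadjusted edgeR p under 0.05 and higher was 8, but 16 with 2-cell libraries alone, and 5 to 9 when each Sm-injected library was left out, the 5 being without the combined injection. The median member change of 0.23 was 0.28 with library totals, 0.22 to 0.25 when each Sm-injected library was left out, 0.11 over single-exon members and 0.32 over members with several exons, a split added after the data were seen. Positive members numbered 131 to 151 over these settings, and 140 of the 186 with an implied length of at least 200 bases.

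The member list itself depends on its limits. Requiring no 1-cell read kept 55 of the members and taking the first 100 genes kept 98, which both follow from the ranking itself. Ranking by cRPKM kept 109. Leaving out 1 2-cell library kept 188 to 193. Relatives that rose numbered 167 to 187 and those that fell 26 to 36 over all fits, but 88 and 33 among those with at least 40 summed 1-cell reads, a limit added after the data were seen that leaves fewer genes. Library totals placed the median stage change of all genes at 0.41, against 0.15 with TMM, and called 7273 genes higher and 4161 lower, against 6198 and 5198. The stage fit pairs the 2 libraries of each injection through its injection term, and without that term (no replicate block) 5934 genes were called higher and 5473 lower. For the Sm effect no paired analysis was possible because each injection has 1 library at a stage. The cause of these shifts was not tested.

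With 1 library per condition, leaving out the mCherry library leaves no comparison. A count of 0 at the 1-cell stage allows up to 3 reads over the stage, and at 1 to 4 reads the 1-cell level cannot be compared between injections.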

Other observations

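At the 1-cell stage the members' few reads were spread over the libraries. Members with a read numbered 43 with Snrpb, 76 with Snrpd2 and 69 with both, against 38 with mCherry. The limit of 4 summed reads caps these values, so no comparison was made.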
